A study of Mus musculus with 24 samples.

Results

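The transcripts described here are those of the mouse mitochondrial genome. They were chosen as the genes whose symbol starts with mt-, in ribosome pulldowns from spinal cord. Of 38924 genes in each library, 37 met the rule: 2 ribosomal RNAs (rRNAs), 13 mRNAs and 22 transfer RNAs (tRNAs). Counts were above 0 for the 2 rRNAs and 13 mRNAs in each of the 24 libraries, and all 15 passed the filter on low counts in each fit. The 22 tRNAs were at 0 in every library.

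In the RiboTag method, cells that express Cre recombinase carry the HA tag on their cytosolic ribosomes, at the protein Rpl22, so that anti-HA antibody can collect these ribosomes and the RNA on them. The study compared ribosome-associated RNA of mice with and without the C201R mutation of Gars, the gene of glycyl-tRNA synthetase. All mice were 8 weeks old, had the strain background given as B6.CgxB6.129 and were labelled Rpl+/-, so the controls carried the RiboTag allele too. The 4 groups of 6 mice were wild type with Cre (Chat+/-;C201R+/+ in the labels' notation), C201R with Cre (Chat+/-;C201R+/-), wild type without Cre (Chat+/+;C201R+/+) and C201R without Cre (Chat+/+;C201R+/-). Cre was driven from the choline acetyltransferase (ChAT) gene, which is active in motor neurons and in other cholinergic cells. A pulldown without Cre has no tagged ribosome and measures the RNA that comes along unspecifically. Samples are named by their mouse number, and each mouse gave 1 library.

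Mitochondrial DNA is transcribed inside the organelle, from promoters on each of its strands, into long RNAs that carry several genes. Most rRNAs and mRNAs in these RNAs are flanked by tRNAs, and cutting out the tRNAs frees them. The mRNAs code for core subunits of the respiratory chain and of ATP synthase and are translated by mitochondrial ribosomes, which do not contain Rpl22. The other subunits of the same complexes, and all proteins of the mitochondrial ribosome, are encoded in the nucleus and translated on cytosolic ribosomes. Gars makes both the cytosolic and the mitochondrial form of glycyl-tRNA synthetase.

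Library totals ranged from 8.90 to 28.3 M counts (M, megacounts), and mitochondrial counts from 0.352 to 7.45 M. With Cre, 2 libraries stood apart. C201R mouse 14003-1 and wild-type mouse 14701-9 had mitochondrial shares of 15.8% and 17.1% of counts, and the lowest totals of their groups (12.1 and 13.5 M). Their cholinergic markers summed to 1560 and 2049 CPM (counts scaled to a common library size), also the lowest of their groups. Gm26924, a model with reads of nuclear-encoded ribosomal RNA, held 43.3% and 30.8% of their counts, the most in their groups. The labelled target cells were checked with 15 cholinergic and motor neuron markers, all of which were higher with Cre in both genotypes, with edgeR's quasi-likelihood test. Of all genes tested, 27.7% were called higher with Cre in wild type and 30.5% in C201R. Chat rose by 3.59 ± 0.32 in wild type and 5.09 ± 0.34 in C201R (log2, SE; adjusted p = 1.9e-07 and 6.2e-09). Library numbers formed 2 runs, called series 1 (7 libraries) and series 2 (17 libraries); mice 14003-1 and 14701-9 are both in series 1.

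Gene positions are shown because neighbouring genes share bases, which decides how reads can be told apart. The files give no coordinates. The 37 gene identifiers all matched the GENCODE M21 annotation of GRCm38, with the same gene lengths, and the sequences below are from that reference. Overlapping coding regions on the same strand join mt-Atp8 to mt-Atp6 (43 bases) and mt-Nd4l to mt-Nd4 (7 bases). Each pair is known as 1 mRNA with a shared stretch read in different frames. The stretches are given with 20 bases on each side, the shared bases in capitals, from MT:7907-7989 and MT:10147-10193 on the plus strand. The glycine tRNA is included because Gars charges it; it lies at MT:9391-9458 on the plus strand, with its anticodon in capitals.
mt-Atp8 and mt-Atp6: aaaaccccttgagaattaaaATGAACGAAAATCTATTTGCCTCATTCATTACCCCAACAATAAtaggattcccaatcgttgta
mt-Nd4l and mt-Nd4: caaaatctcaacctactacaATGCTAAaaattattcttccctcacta
mt-Tg: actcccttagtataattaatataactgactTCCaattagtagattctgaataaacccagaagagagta

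The glycine tRNA mt-Tg is 68 bases long. RSEM, the program behind the counts, gave it an effective length of 0 in every library, and the same held for the other 21 tRNAs. The effective length is the number of positions where a fragment of the library's usual size can start. A count of 0 there is thus no measurement of the tRNA, and no statement on mt-Tg in C201R mice can be made from these counts. Among the mRNAs, mt-Nd6 alone lies on the minus strand. Its last 14 bases overlap the end of mt-Nd5 on the other strand, and whether the libraries kept strand is not stated in the sources used here. If strand was not kept or not used, reads from the opposite strand of mt-Nd6 cannot be told apart from its own.

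A copy of part of mitochondrial DNA in the nuclear genome took reads from 1 mRNA. The pseudogene model Gm10222 is identical to mt-Nd4l over 294 bases, and the counts of both were equal within 0.01 in all 24 libraries, 70682 for each in sum. The deposited values of mt-Nd4l therefore hold an equal part of the reads that fit both. Other measured nuclear models with at least 95% identity took little. Gm13340 held 0.0367% of the counts of mt-Co1, Gm13341 held 0.0302% of those of mt-Co2, Gm13339 held 0.0207% of those of mt-Nd2, and Gm4076 held 0.0114% of those of mt-Nd5.

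Mitochondrial transcripts made up a large part of the libraries without Cre, and a much smaller part of those with Cre, in both genotypes. Their share of counts was 42.1 to 55.5% in wild type without Cre (median 48.4%) and 35.2 to 49.6% in C201R without Cre (median 46.7%). With Cre it was 1.24 to 17.1% in wild type (median 3.12%) and 3.03 to 15.8% in C201R (median 5.70%). All 6 libraries with Cre lay below all 6 without it in each genotype, with no overlap even for mice 14003-1 and 14701-9. The difference of the means was -43.3 percentage points in wild type and -38.5 in C201R (exact two-sided permutation p = 0.0022 in each, the smallest the design allows; adjusted p = 0.023 over 32 tests). A smaller share means less mitochondrial RNA relative to the other RNA in the pulldown. It does not give the amount of mitochondrial RNA, which was not measured. With Cre the other RNA includes RNA on tagged ribosomes, which a pulldown without Cre does not have. Whether the number of cells of a type or the RNA per cell differed cannot be told from these shares.

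**Figure D1:**
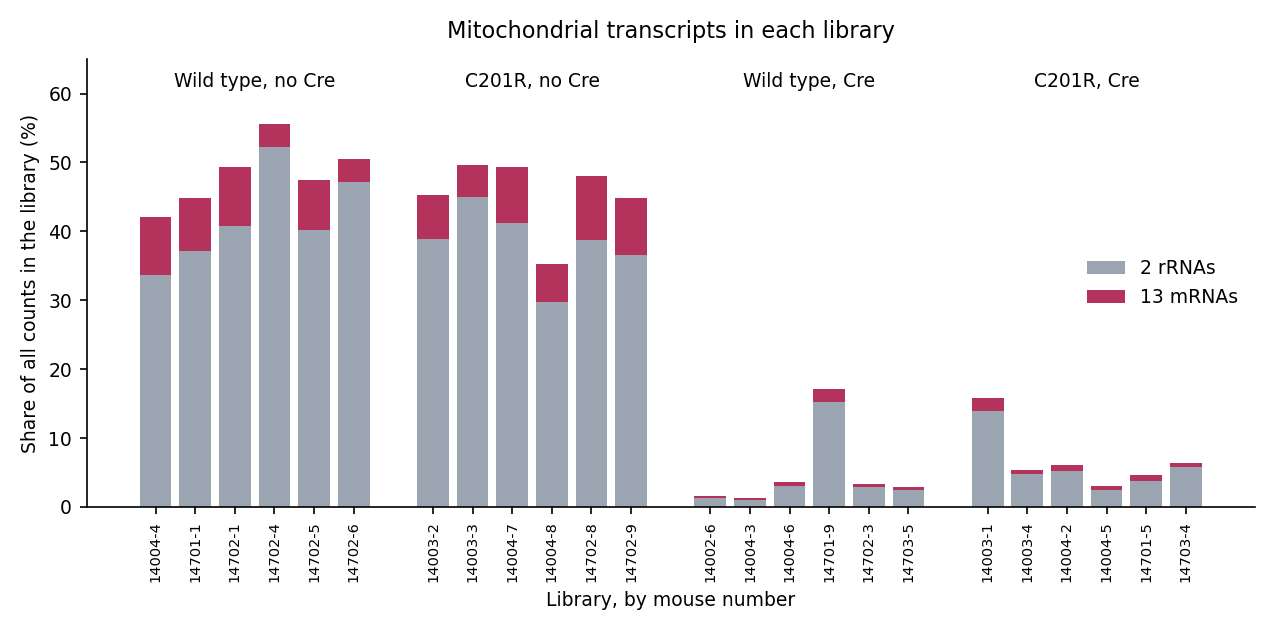
Share of all counts (%, vertical axis) taken by the 2 mitochondrial rRNAs (grey) and the 13 mRNAs (red) in each of the 24 libraries, named by mouse number and placed by group. The bars of the 12 libraries without Cre stand between 35.2 and 55.5%, and with Cre only mice 14701-9 (17.1%) and 14003-1 (15.8%) exceed 6.45%.

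The 2 rRNAs, the RNA core of the mitochondrial ribosome, accounted for most of these counts. mt-Rnr2, the large-subunit rRNA, ran from 244190 to 369741 CPM in wild type without Cre (median 311511). With Cre in wild type it ran from 4150 to 124690 CPM (median 11321). In C201R the range was 159299 to 415700 CPM without Cre (median 299390) and 10212 to 205471 CPM with Cre (median 27819). The wild-type groups did not overlap, whereas C201R mouse 14003-1 with Cre reached above the lowest C201R library without Cre. CPM here are scaled by TMM over all 24 libraries, with factors between 0.449 and 1.67, so they can exceed the plain share of counts. The log2 change of mt-Rnr2 with Cre was -4.65 ± 0.82 in wild type and -3.30 ± 0.65 in C201R (SE; edgeR adjusted p = 5.1e-04 and 5.8e-04). mt-Rnr1, the small-subunit rRNA, changed by -4.92 ± 0.89 and -3.61 ± 0.71 (edgeR adjusted p = 6.9e-04 and 7.5e-04).

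All 15 measured mitochondrial genes were lower with Cre in both genotypes by edgeR's quasi-likelihood test (adjusted p under 0.05). Of all genes tested, 32.8% were called lower with Cre in wild type and 26.3% in C201R. The median log2 change of the 15 was -4.65 in wild type and -3.62 in C201R, beside medians of -0.10 and 0.06 over all genes tested. Leaving out mice 14003-1 and 14701-9, the 15 stayed called and the medians were -5.21 and -4.07. The size depended on the model: the medians were -3.73 and -2.71 without a term for library series. Scaling by library totals alone gave -3.70 and -3.08, while the median of all genes rose to 0.84 and 0.64. With a replicate block for the prefix of the mouse number, 13 of the 15 were called lower in C201R (median -2.89); mt-Co2 and mt-Nd3 were not.

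**Figure D2:**
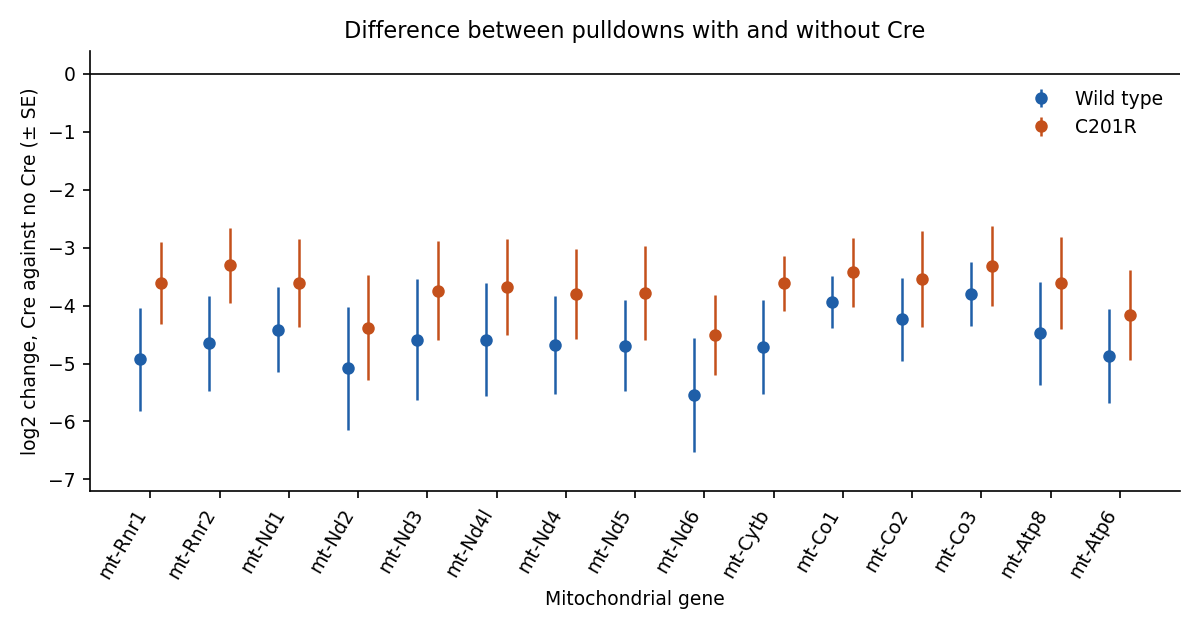
log2 change between pulldowns with and without Cre (vertical axis, negative values lower with Cre) for the 15 measured mitochondrial genes in wild type (blue) and C201R (orange); bars are SE from edgeR. All points lie between -3.30 and -5.54, with mt-Nd6 the lowest in each genotype.

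Complex I, NADH dehydrogenase, takes electrons into the respiratory chain, and 7 of the mRNAs code for it. mt-Nd5, the most counted mRNA, ran from 7105 to 19982 CPM in wild type without Cre (median 16275) and from 228 to 5023 CPM with Cre (median 480). In C201R it ran from 6485 to 24778 CPM without Cre (median 19189) and from 434 to 9448 CPM with Cre (median 1235), where only mouse 14003-1 overlapped the libraries without Cre. Its log2 change was -4.69 ± 0.79 in wild type and -3.78 ± 0.81 in C201R (edgeR adjusted p = 4.7e-04 and 0.0024). The other complex I mRNAs on the plus strand changed in wild type by -4.41 (mt-Nd1) to -5.08 (mt-Nd2), and in C201R by -3.61 (mt-Nd1) to -4.38 (mt-Nd2).

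mt-Nd6, the only mRNA of the other strand, had the most negative log2 change of the 15 in both genotypes. Without Cre it ran from 1013 to 5896 CPM in wild type (median 3814) and from 1643 to 5911 CPM in C201R (median 4948). With Cre the values were 31.6 to 908 CPM (median 64.5) and 63.6 to 1231 CPM (median 213), below every library without Cre of the same genotype. The log2 change was -5.54 ± 0.99 in wild type and -4.50 ± 0.68 in C201R (edgeR adjusted p = 8.7e-04 and 2.1e-04). The log2 changes of the genes were not tested against each other. The share of mt-Nd6 in the mitochondrial mRNA counts is given below with its test.

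mt-Cytb codes for cytochrome b of complex III, which passes electrons on to cytochrome c. Its log2 change was -4.71 ± 0.81 in wild type and -3.62 ± 0.47 in C201R (edgeR adjusted p = 6.0e-04 and 1.6e-05). With Cre it ran from 253 to 3377 CPM in wild type (median 349) and from 445 to 4863 CPM in C201R (median 1335). Without Cre the ranges were 3470 to 18090 CPM and 3802 to 20666 CPM. On this TMM scale, the groups were apart in wild type and overlapped through mouse 14003-1 in C201R.

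Complex IV, cytochrome c oxidase, reduces oxygen, and its core is made of the products of mt-Co1, mt-Co2 and mt-Co3. mt-Co1 stood at 8853 to 15798 CPM in wild type without Cre (median 12162) and at 462 to 3360 CPM with Cre (median 765). In C201R it stood at 8134 to 19055 CPM without Cre (median 11925) and at 768 to 4555 CPM with Cre (median 895), with no overlap in either genotype. It fell by 3.94 ± 0.45 in wild type and by 3.42 ± 0.60 in C201R on the log2 scale (edgeR adjusted p = 8.1e-06 and 3.7e-04). mt-Co3 had the least negative change in wild type, -3.80 ± 0.55, and changed by -3.32 ± 0.69 in C201R. mt-Co2 changed by -4.23 ± 0.72 and -3.54 ± 0.82.

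ATP synthase uses the proton gradient to make ATP, and mt-Atp6 and mt-Atp8 code for parts of its membrane portion. mt-Atp6 ran from 1806 to 6318 CPM in wild type without Cre (median 4843) and from 53.3 to 947 CPM with Cre (median 127). It changed by -4.88 ± 0.81 in wild type and -4.16 ± 0.78 in C201R (edgeR adjusted p = 5.3e-04 and 0.0011), with no overlap of the groups in either genotype. mt-Atp8 changed by -4.47 ± 0.89 and -3.61 ± 0.80. For mt-Nd4l, whose reads are shared with Gm10222, the changes were -4.59 ± 0.98 and -3.67 ± 0.83, and for mt-Nd3 -4.58 ± 1.04 and -3.74 ± 0.86.

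Most markers of cells without ChAT-Cre were lower with Cre as well, and these values stand beside the mitochondrial ones without a test of their part in them. Of all genes tested, 32.8% were called lower with Cre in wild type and 26.3% in C201R. All 12 oligodendrocyte markers were lower in both genotypes, with median log2 changes of -3.53 in wild type and -3.28 in C201R. Their summed level was 5144 to 9183 CPM in wild type and 5296 to 8208 CPM in C201R without Cre, and 531 to 1162 and 588 to 882 CPM with Cre. Of 12 astrocyte markers 11 were lower in wild type (median -3.13) and 10 in C201R (median -3.29), while S100b was higher in both, at 1.01 ± 0.15 and 1.24 ± 0.17. Of 11 noncoding RNAs that stay in the nucleus or are not translated, 10 were lower in wild type (median -3.47) and 9 in C201R (median -2.99). Snhg11 was among them, at -3.62 ± 0.21 and -2.93 ± 0.20. Gm26924, also on that list, was higher in C201R, at 1.78 ± 0.40. The summed level of the list had medians of 81223 CPM without Cre and 75411 CPM with Cre in wild type, and of 83897 and 251143 CPM in C201R. Gm26924, with its reads of nuclear-encoded ribosomal RNA, is part of these sums. It took 1.60 to 7.60% of counts in C201R without Cre and 8.01 to 43.3% with Cre. The sums are thus no measure of RNA that stays in the nucleus. Microglia markers were lower in 9 of 9 and 8 of 10 (medians -3.34 and -2.65), endothelial and mural markers in 12 of 12 in each (medians -3.11 and -2.94), and blood cell markers in 6 of 6 and 7 of 7 (medians -2.97 and -2.55).

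Within the mitochondrial RNA, a difference in the balance of rRNA and mRNA with Cre was not detectable. The mRNAs made up 13.8 ± 5.9% of mitochondrial counts in wild type without Cre and 16.1 ± 3.4% with Cre (SD, n = 6; exact permutation p = 0.40, adjusted p = 0.59). In C201R the values were 15.6 ± 3.7% and 13.8 ± 3.3% (SD, n = 6; exact permutation p = 0.40, adjusted p = 0.59). Wild-type mice 14702-4 and 14702-6 without Cre had the lowest mRNA shares of all libraries, 5.97% and 6.75%. Leaving them out, an alternative chosen after seeing the data, the wild-type mean without Cre was 17.5 ± 2.0%, and the exact permutation p was 0.50 (n = 6 and 4). The mean fragment length implied by RSEM was 157 and 156 bases in these mice, beside 161 to 166 bases in the other wild-type libraries without Cre; its part in the result was not tested.

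The 2 rRNAs differed from each other. mt-Rnr2 took 59.1 to 62.9% of the rRNA counts in wild type without Cre (median 60.3%) and 62.7 to 70.2% with Cre (median 65.4%). In C201R it took 59.4 to 65.4% without Cre (median 63.6%) and 65.6 to 68.3% with Cre (median 66.6%). Of the libraries with Cre, 5 of 6 in wild type and 6 of 6 in C201R lay above every library without Cre of the same genotype. The differences were 5.25 and 3.97 percentage points (exact two-sided permutation p = 0.0043 and 0.0022; adjusted p = 0.023 in each), and the adjusted p was 0.024 in each when labels were exchanged inside each library series (exact permutation). Within series 1 the means were 67.0% with Cre and 61.5% without it in wild type, and 65.7% and 65.4% in C201R, where each group without Cre had 1 library. Within series 2 they were 65.3% and 60.4% in wild type and 67.8% and 62.3% in C201R. The C201R call ended without mouse 14703-4 (adjusted p = 0.058, exact permutation), and the wild-type call without mice 14702-4 and 14702-6 (adjusted p = 0.076, exact permutation). Without mice 14702-4 and 14702-6 fewer splits are possible, so the lost call alone does not show that the difference depends on them.

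Among the mRNAs, the summed share of mt-Atp6 and mt-Atp8 was lower with Cre in wild type, at 4.21 ± 0.77% of mRNA counts against 5.52 ± 0.44% (SD, n = 6; exact permutation p = 0.0043, adjusted p = 0.023 over 32 tests). That call was lost with counts per effective length (adjusted p = 0.20, exact permutation). In C201R the share was 3.96 ± 1.02% against 5.78 ± 0.94% (exact permutation adjusted p = 0.059). Complex I took 51.7% with Cre and 58.8% without it in wild type, and 55.9% and 61.9% in C201R (exact permutation adjusted p = 0.11 and 0.21). Complex IV took 30.8% and 22.1% in wild type, and 21.9% and 20.3% in C201R (exact permutation adjusted p = 0.10 and 0.71).

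Single mRNAs were compared in the same way. mt-Nd5 took the largest mean share of mRNA counts in both groups without Cre, 18.9% in wild type and 18.2% in C201R, and mt-Nd3 the smallest, 0.235% and 0.270%. In wild type, mt-Nd6 took 2.84 to 5.69% of mRNA counts without Cre (median 4.71%) and 1.98 to 3.68% with Cre (median 2.42%). The mean fell from 4.53 ± 1.01% to 2.50 ± 0.62% (SD, n = 6; exact permutation p = 0.0043, adjusted p = 0.045 over 52 tests of single mRNAs and 0.023 among the 32 library measures). In C201R the means were 4.48 ± 0.76% and 3.20 ± 0.87% (SD, n = 6; exact permutation p = 0.024, adjusted p = 0.15), a difference that did not pass the test.

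In wild type 3 further shares passed that test, each with an adjusted p of 0.045 (exact permutation). mt-Atp6 lay below every library without Cre in 6 of 6 libraries, at 3.88 ± 0.71% against 5.19 ± 0.42% (SD, n = 6). mt-Nd4 was lower, at 12.6 ± 2.5% against 14.9 ± 0.7%, and mt-Co2 was higher, above every library without Cre in 6 of 6, at 4.80 ± 1.65% against 3.25 ± 0.39%. In C201R mt-Nd2 was lower with Cre, at 9.44 ± 2.10% against 14.8 ± 2.2% (SD, n = 6; exact permutation adjusted p = 0.045), and mt-Atp6 stood at 3.60 ± 0.96% against 5.43 ± 0.92% (adjusted p = 0.064, exact permutation). All 5 calls were lost with labels exchanged within library series, with counts per effective length, and in series 2 alone, where fewer splits are possible. Leaving out single libraries left 0 of the wild-type calls in 10 of 12 cases; 3 shares passed without mouse 14004-6 and 5 without mouse 14701-9.

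**Figure D3:**
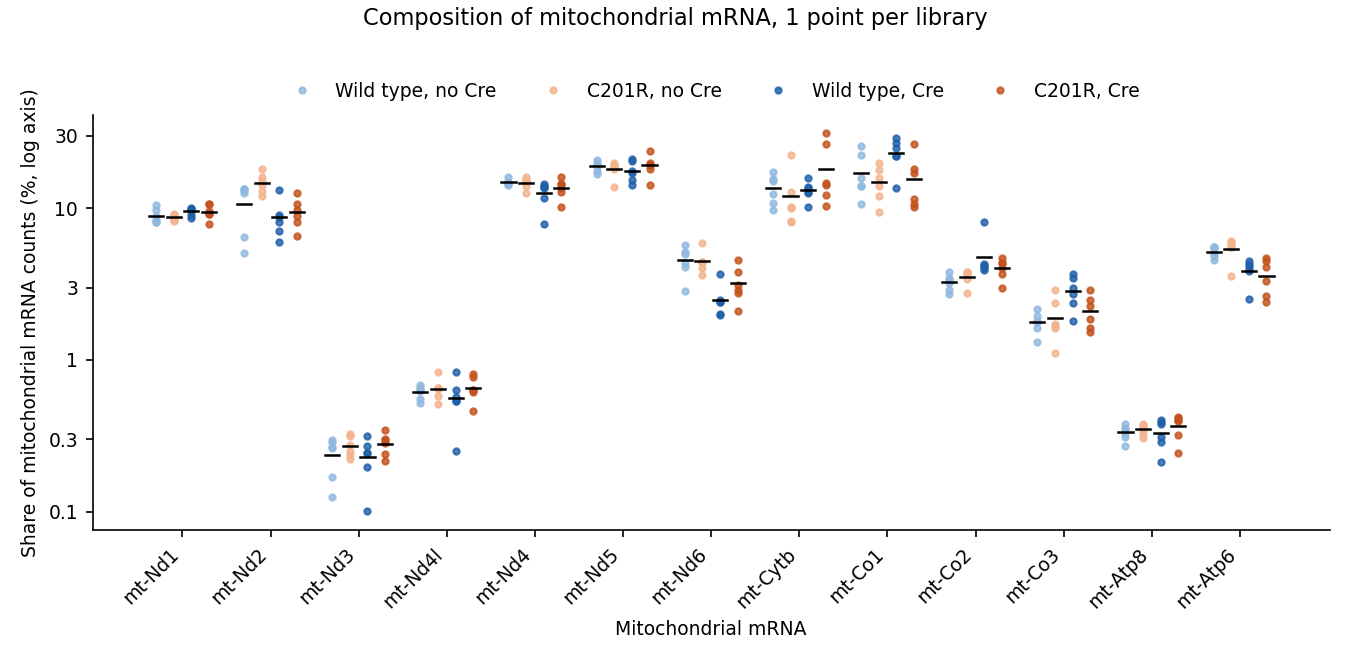
Share of each of the 13 mRNAs in the mitochondrial mRNA counts (%, log axis) for the 24 libraries; points are libraries, colours are the 4 groups and black lines are group means. Shares span from 0.101% (mt-Nd3 in mouse 14002-6) to 31.2% (mt-Cytb in mouse 14701-5), and the groups overlap for most genes.

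Library series went with part of this mixture. mt-Cytb took 31.2% and 26.5% of mRNA counts in C201R mice 14701-5 and 14003-4 with Cre and 22.5% in C201R mouse 14003-2 without Cre, the 3 highest values of all libraries and all in series 1. The C201R mean with Cre was 23.3% in series 1 and 13.1% in series 2, while in wild type with Cre it was 13.7% and 12.9%. The complex IV share was 16.3% in series 1 and 27.4% in series 2 for C201R with Cre, and 26.3% and 33.1% for wild type with Cre. What the series stand for is not given in the labels, and their part in these shares was not tested.

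Levels of different genes were compared as TPM, which divides counts by effective length. mt-Nd3, mt-Co3, mt-Nd4l and mt-Atp8 had the 4 lowest means of the 13 mRNAs in each of the 4 groups, in that order from the lowest, on the deposited values. In wild type without Cre they averaged 1115 ± 620, 2284 ± 828, 3593 ± 1428 and 4988 ± 2166 TPM (SD, n = 6). The place of mt-Nd4l depends on its nuclear copy: with the Gm10222 counts added it averaged 7187 ± 2857 TPM in wild type without Cre, and it left the lowest 4 in each group. At the top stood mt-Cytb at 11977 ± 6159 TPM, mt-Nd2 at 11063 ± 6390 TPM and mt-Nd6 at 10727 ± 5153 TPM, whose order lies within their spread. The highest mean was that of mt-Nd2 in C201R without Cre (14933 ± 3820 TPM), of mt-Co1 in wild type with Cre (1476 ± 598 TPM) and of mt-Cytb in C201R with Cre (2168 ± 988 TPM). The rRNAs stood well above, at 266426 ± 51466 TPM for mt-Rnr1 and 228339 ± 38556 TPM for mt-Rnr2 in wild type without Cre.

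The joined genes shown above give a check of these levels, since each pair is known as 1 mRNA. Per effective length, mt-Atp8 stood at 0.537 to 0.676 of mt-Atp6 in wild type without Cre (median 0.570) and at 0.680 to 0.854 with Cre (median 0.792). In C201R the ratio was 0.518 to 0.804 without Cre (median 0.599) and 0.780 to 1.09 with Cre (median 0.850). mt-Nd4l stood at 0.288 to 0.408 of mt-Nd4 in wild type without Cre (median 0.364). With the counts of Gm10222 added, that median was 0.729, and it was 0.729, 0.750 and 0.803 in C201R without Cre, wild type with Cre and C201R with Cre. The effective length of mt-Atp8 was only 51.6 to 65.9 bases of 204, so its level per length moves with the fragment length more than that of long genes.

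Between genotypes with Cre, no mitochondrial gene was called, and the values turned on the libraries that stood apart. The 15 genes were higher in C201R by a median of 0.69 on the log2 scale, from 0.24 ± 0.55 (mt-Co1) to 0.84 ± 0.76 (mt-Rnr2). edgeR called 0 of 15 (adjusted p from 0.49 for mt-Cytb to 0.86 for mt-Co1) beside 4.11% of all genes tested; 0 had an unadjusted p under 0.05, and DESeq2 and limma-voom called 0 as well. In TMM-scaled CPM, only mouse 14003-1 of the C201R libraries lay above every wild-type library, for each of the 15 genes. By plain mitochondrial share of counts it did not, at 15.8% beside 17.1% in wild-type mouse 14701-9. The TMM factors of these 2 libraries over all 24 were 0.449 and 0.779. The mitochondrial share of counts was 6.87 ± 4.52% in C201R and 4.98 ± 6.02% in wild type (SD, n = 6; exact permutation p = 0.48, adjusted p = 0.64).

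Mice 14003-1 and 14701-9 stand apart by their mitochondrial share itself, as known from earlier results of these data, so values without them are a description and no test of the share is given. Without them the median was 1.22 and edgeR called 1 of 15, mt-Atp8, at 1.24 ± 0.37 (adjusted p = 0.048), beside 13.3% of all genes tested in that fit. All 15 had an unadjusted p under 0.05, as did 29.4% of all genes. Leaving out mice by their mitochondrial share narrows the spread of these same genes. Neither count can therefore serve as a test, and no conclusion is drawn from them. In those 10 libraries the mitochondrial share was 5.09 ± 1.35% in C201R and 2.56 ± 1.07% in wild type (SD, n = 5 and 5). Leaving out mouse 14003-1 alone gave a median of 0.16, and leaving out 14701-9 alone 1.49, with 0 of 15 called in each. With a replicate block for the prefix of the mouse number the median was 0.21. Beside these values, the cholinergic markers summed to 1560 to 2682 CPM in C201R and 2049 to 4110 CPM in wild type with Cre. In the fit of all 12 libraries, 5 of the 15 were called lower in C201R, as were 266 of all 14634 genes tested. Gm26924 took 8.01 to 43.3% of counts in C201R and 7.45 to 30.8% in wild type. The part of either in the mitochondrial values was not tested.

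**Figure D4:**
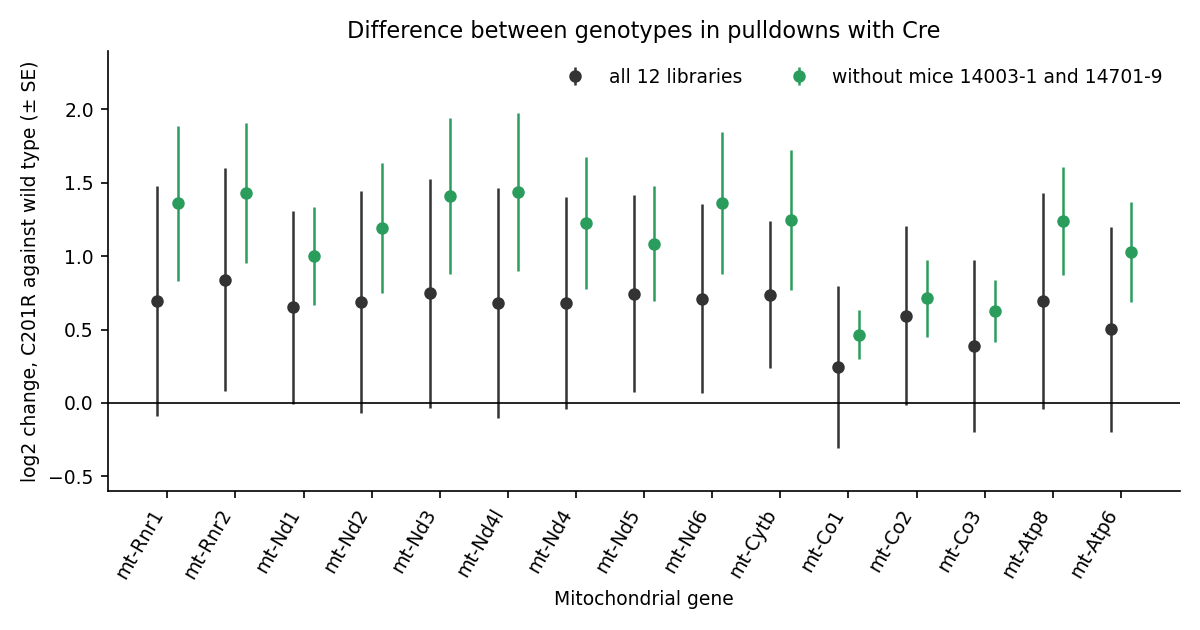
log2 change between C201R and wild type in pulldowns with Cre (vertical axis, positive values higher in C201R) for the 15 measured mitochondrial genes, with all 12 libraries (black) and without mice 14003-1 and 14701-9 (green); bars are SE from edgeR. The black points lie between 0.24 and 0.84 with wide errors, and the green points between 0.47 and 1.44.

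No share in the mRNA mixture passed the adjusted test between genotypes with Cre. The complex IV share was 21.9 ± 7.1% in C201R and 30.8 ± 5.9% in wild type (SD, n = 6; exact permutation p = 0.045, adjusted p = 0.13). mt-Co1, which makes up most of it, had a share of 15.7 ± 6.3% against 23.2 ± 5.4% (exact permutation p = 0.058, adjusted p = 0.30). With labels exchanged within library series the adjusted p values were 0.057 and 0.099 (exact permutation).

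Between genotypes without Cre, no mitochondrial gene passed the test. The median log2 change of the 15 genes was 0.20, from -0.12 ± 0.26 (mt-Rnr1) to 0.47 ± 0.57 (mt-Nd2), and edgeR called 0 of 15, with 0 at an unadjusted p under 0.05. Of all 14400 genes tested, edgeR called 0% here; 455 had an unadjusted p under 0.05, DESeq2 called 2 and limma-voom called 1. Without wild-type mice 14702-4 and 14702-6, the libraries of low mRNA share, the median was -0.15. mt-Nd2 took 14.8 ± 2.2% of mRNA counts in C201R and 10.7 ± 3.8% in wild type (SD, n = 6; exact permutation p = 0.045, adjusted p = 0.26), and 13.2 ± 0.4% in wild type without those mice.

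Whether the Cre difference itself depended on genotype was tested as an interaction over all 24 libraries. edgeR called 0 of 15 mitochondrial genes, with 0 at an unadjusted p under 0.05, beside 0.130% of all genes tested. The median difference of the log2 changes was 0.48, from 0.16 ± 0.64 (mt-Co1) to 1.00 ± 0.78 (mt-Cytb). It ranged from -0.21 without mouse 14003-1 to 1.61 without mouse 14701-9. A dependence of the Cre difference on genotype was not detectable beyond the spread between mice.

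mRNAs of the nuclear-encoded partners moved the other way with Cre. Of 76 measured nuclear-encoded subunits of the respiratory chain and ATP synthase, 75 were higher with Cre in each genotype, beside 27.7% of all genes tested in wild type and 30.5% in C201R, with median log2 changes of 1.72 in wild type and 2.21 in C201R. Atp5d, a subunit of the catalytic part of ATP synthase, rose by 2.67 ± 0.24 and 2.50 ± 0.22 (edgeR adjusted p = 2.0e-07 and 5.7e-08). Of the mitochondrial ribosomal proteins, 61 of 80 were higher in wild type (median 1.36) and 74 of 81 in C201R (median 1.73), with Mrpl48 the only member called lower, at -3.10 ± 0.85 and -2.72 ± 0.76.

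Together the 13 mitochondrial mRNAs took 4.79 to 12.8% of TPM in wild type without Cre, where the nuclear-encoded subunits took 0.277 to 0.664%. The ratio of both sums was 7.39 to 38.5 in wild type (median 27.7) and 9.87 to 48.4 in C201R (median 26.8) without Cre. With Cre it was 0.136 to 1.35 in wild type (median 0.239) and 0.232 to 1.42 in C201R (median 0.374). Only mice 14701-9 and 14003-1 had a ratio above 1 with Cre. Every library without Cre lay above every library with Cre.

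**Figure D5:**
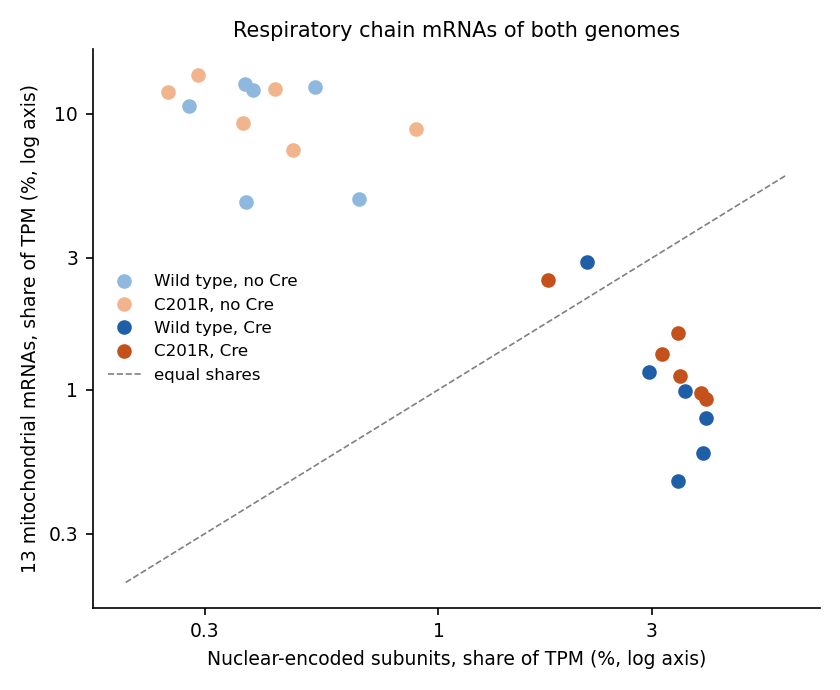
Share of TPM (%, log axes) of the nuclear-encoded subunits (horizontal) and the 13 mitochondrial mRNAs (vertical) in the 24 libraries, coloured by group; the dashed line marks equal shares. Libraries without Cre lie far above the line and those with Cre below it, except mice 14701-9 and 14003-1, which lie just above.

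Nuclear-encoded factors that act on mitochondrial RNA differed from one another. Of all genes tested, 27.7% were higher with Cre and 32.8% lower in wild type, and 30.5% and 26.3% in C201R. Of 14 transcription and replication factors, Cre pulldowns of wild type had 2 higher and 3 lower, and those of C201R had 4 higher and 1 lower. Tfam, which packs mitochondrial DNA and starts its transcription, was higher by 0.73 ± 0.28 and 0.79 ± 0.30 (edgeR adjusted p = 0.035 and 0.034), and Polg2, the accessory subunit of the DNA polymerase, changed by -3.07 ± 0.45 in wild type. Of 22 RNA processing and stability factors 8 were higher in each genotype, a share near that of all genes, and 1 and 0 were lower. Grsf1, a protein of mitochondrial RNA granules, was higher by 1.90 ± 0.19 and 2.29 ± 0.21 (edgeR adjusted p = 4.9e-07 and 1.2e-07). Of 16 translation factors 6 were higher and 2 lower in wild type, and 7 higher and 1 lower in C201R. Tufm, the mitochondrial elongation factor Tu, rose by 2.22 ± 0.29 and 1.83 ± 0.28.

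Enzymes that act on tRNAs were measured although the tRNAs were not. Of 20 modification enzymes for mitochondrial tRNA and rRNA, 3 were higher in each genotype, and 3 and 0 lower. The shares over all genes tested were 27.7% higher and 32.8% lower in wild type, and 30.5% and 26.3% in C201R. Of 19 mitochondrial aminoacyl-tRNA synthetases with genes of their own, a list without Gars, 1 was higher and 2 lower in wild type, and 3 higher and 2 lower in C201R. With Cre, the summed level of this list ran from 6983 to 48624 CPM in wild type and from 7649 to 126121 CPM in C201R. Mice 14701-9 and 14003-1 were the highest, as they were for Gm26924. Whether a member of the list holds reads of ribosomal RNA was not tested. Between genotypes with Cre, 7 of 76 nuclear-encoded subunits were higher in C201R and 0 lower (median 0.43). Of all 14634 genes tested there, 335 were higher and 266 lower. Among the 7 were Atp5g3 at 0.89 ± 0.20 and Cox5a at 0.92 ± 0.22 (edgeR adjusted p = 0.023 and 0.033). The summed level of the subunits with Cre in C201R was 11393 to 16873 CPM in series 1 and 7393 to 10092 CPM in series 2. In wild type it was 8596 and 10359 CPM in series 1 and 6860 to 8314 CPM in series 2. The part of the series in these calls was not tested. Of 81 mitochondrial ribosomal proteins 2 were higher, Mrpl24 and Mrps33. Ssbp1, which binds single-stranded mitochondrial DNA, was the only called transcription and replication factor, at 0.62 ± 0.14 (edgeR adjusted p = 0.023). No RNA processing factor, translation factor, modification enzyme or synthetase of these lists was called in that comparison. Calls on these lists were not repeated under the alternatives, to which the number of genes called between genotypes with Cre was sensitive. Gars, which is on none of the lists, was higher by 0.80 ± 0.12 in C201R (edgeR adjusted p = 0.0020).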

How the data were processed

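Ribosome pulldowns from 24 spinal cords were measured by RNA-seq, 6 mice a group. The authors deposited expected counts, TPM and FPKM per gene. The submitters' processing notes name RSEM 1.2.12 and Bowtie2 2.2.0. Build, annotation and strand setting are not given in the sources used here. Deposited expected counts were rounded for the gene tests and used as given for shares; the deposited FPKM was not analysed. RSEM divides reads that fit several genes, as for mt-Nd4l.

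The gene test was the robust quasi-likelihood test of edgeR 4.0.16 (R 4.3.3) after filterByExpr and TMM scaling, with library series as a term, each pair of groups on its own 12 libraries and the interaction on all 24. SE is the log2 change over the square root of F. A gene is called at an adjusted p under 0.05 (Benjamini-Hochberg, all genes tested). For library measures, an exact two-sided permutation test ran over 924 splits, adjusted over 32 tests (8 measures) or 52 (single mRNAs), in 4 contrasts. Members, the 15 lists of other genes and tests were chosen with earlier results of these data known. All members are described; of other lists, up to 3 called genes of smallest p per direction could be named. Nuclear copies were found with blastn 2.17.0 (at least 95% identity over 75 bases). No 2 libraries agreed within sampling noise (smallest chi-square per degree of freedom 11.3). The fits were tested on simulated data. In a simulation of C201R against wild type with Cre (14634 genes, 200 changed), edgeR recovered 29% of 2-fold changes and 78% of 4-fold changes, with 3.6% of calls wrong. For the Cre comparison in wild type (14264 genes, 200 changed) it recovered 26% and 62%, with 2.2% wrong. The measured libraries gave 8637 called genes in that comparison, and recovery at such a number was not tested. Alternatives were RLE scaling, library totals, scaling without mitochondrial genes and Gm26924, DESeq2 1.42.0, limma-voom with quality weights (limma 3.58.1), no filter, no series term, a replicate block for the prefix of the mouse number, series 2 alone, and leaving out libraries.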

Additional observations from a re-analysis of the deposited data

Results flagged for a closer look

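In groups of 6, a library was listed where its gap to the nearest other library was a larger part of the group's range than Dixon's critical value for 6 values. Of 44 sets of values 13 gave such a library, while chance gives about 1 in 20. The mitochondrial share of counts was high in C201R mouse 14003-1 with Cre (15.8%) and wild-type mouse 14701-9 with Cre (17.1%), and low in C201R mouse 14004-8 without Cre (35.2%). Mouse 14003-1 also had a low total of 12.1 M counts. Mouse 14701-9 also had a high mt-Nd6 share of mitochondrial mRNA (3.68%), a short implied fragment length (150 bases) and a high Gm26924 share (30.8%). C201R mouse 14003-2 without Cre had high shares of mt-Cytb (22.5%) and mt-Nd6 (5.89%) and a low share of the ATP synthase genes (3.91%) in its mitochondrial mRNA, and a high Gm26924 share (7.60%). Wild-type mouse 14002-6 with Cre had a low ATP synthase share (2.72%). Wild-type mouse 14702-5 without Cre had a low total (9.14 M counts).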

How the results depend on the processing

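All 15 mitochondrial genes were called lower with Cre in wild type under each alternative run, and in C201R under each except a replicate block for the prefix of the mouse number, which called 13. Among these alternatives, leaving out mice 14003-1 and 14701-9 is no test, since they had the highest mitochondrial shares with Cre. The labels do not say that the prefix marks a litter or batch. Between genotypes with Cre, 0 mitochondrial genes were called except without mice 14003-1 and 14701-9, which gave 1. That call is no test, since these mice were chosen by their mitochondrial share. Between genotypes without Cre and in the interaction, 0 were called under each alternative run. Between genotypes with Cre, mt-Co1 was -0.040 with library totals alone and -0.14 with the replicate block, and ranged from -0.24 to 0.80 leaving out single libraries (-0.0072 without mouse 14002-6). mt-Co3 was -0.10 with the block and ranged from -0.13 to 0.94 leaving out single libraries, and mt-Atp6 ranged from -0.012 to 1.34. None of these was called, and the cause was not tested. Over all genes, the genotype comparison with Cre called 601, from 32 with library totals alone to 1950 without mice 14003-1 and 14701-9, and the interaction 21, from 1 with library totals alone to 115 with DESeq2.

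In series 2 alone, where fewer splits exist, differences with Cre did not pass the exact permutation test: -46.2 and -40.2 percentage points for the mitochondrial share in wild type and C201R, and 4.86 and 5.58 for the mt-Rnr2 share. The mt-Rnr2 difference in wild type was 4.67 without mice 14702-4 and 14702-6, where fewer splits exist too. Leaving out single libraries, it ranged from 4.37 to 5.87 in wild type and from 3.30 to 4.49 in C201R, where it did not pass without mouse 14703-4 (3.66). The single mRNA shares passing with Cre, 4 in wild type and 1 in C201R, were 0 in both with labels exchanged within series, in series 2 alone, with counts per effective length, and without mice 14702-4 and 14702-6. Leaving out single libraries gave 0 to 5 and 0 to 2. Leaving out mice 14702-4 and 14702-6, and adding the Gm10222 counts to mt-Nd4l, were chosen after seeing the data.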
